A study of Mus musculus with 9 samples.

Results

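Whole aortae of mice that carry the Myh11-Cre transgene were compared with aortae of Wild Type mice by RNA sequencing, across every gene with enough counts to be tested. The comparison uses 6 of the 9 libraries of the series, which are Myh11-Cre mice 1, 2 and 3 and Wild Type mice 1, 2 and 3, each library made from 1 aorta. The other 3 libraries come from Itga8-Cre mice and serve here only to estimate the spread between mice and to set beside a few named genes. All animals were C57BL/6J, the tissue was the aorta in all 3 genotypes, and the Wild Type group carried no Cre by its label. Per the series' design text the Cre lines are tamoxifen-inducible CreERT2 mice, and the newly made Itga8 line was to be compared with the much used Myh11 line. Whether these mice received tamoxifen, and their age, sex and day of collection, is not stated in the labels. The p-values below set the difference between the groups against the spread between mice, which the main fit estimates from all 9 libraries. Anything that differed between the groups besides the transgene cannot be told apart from it.

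Myh11 encodes smooth muscle myosin heavy chain, the motor of smooth muscle contraction, and its regulatory sequence is used to direct Cre recombinase to smooth muscle cells. In the CreERT2 form the recombinase is fused to a changed oestrogen receptor and enters the nucleus after tamoxifen is given. The widely used Myh11-CreERT2 line carries a large bacterial artificial chromosome on the Y chromosome and is therefore studied in males, but the labels do not say whether this line was the one used. The aorta holds smooth muscle in its media, endothelium on its inner face, and fibroblasts, fat, sympathetic nerve fibres and immune cells in and around its adventitia, so a whole aorta reports on all of them. In such bulk RNA, fewer cells of a type and less RNA per cell cannot be told apart. The RNA of the Cre transgene was not analysed here.

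The 6 libraries held 33146553 to 42497543 counts each, and 19412 of 55453 listed genes passed the filter on low counts. Levels are read counts relative to the scaled size of each library (CPM, edgeR's unit with trimmed-mean scaling), and ± marks the SD over 3 mice. The score of a gene list in a library averages the log2 CPM of those of its genes that were tested. The libraries of a group were not alike. The score of fast and general skeletal muscle genes was 2.09 in Myh11-Cre mouse 1 against 8.38 and 8.94 in mice 2 and 3, with 5.09 to 5.94 in Wild Type. Myh11-Cre mouse 1 also had the lowest smooth muscle contractile score, 6.02 against 6.68 to 7.35 in the other 5 libraries. Wild Type mouse 2 alone had a high level of Cyp11a1, which starts steroid hormone synthesis, at 37.7 CPM against 0 to 1.95 in the other 5 libraries. Which of the calls named below rest on single libraries is given after the counts. The 4 Y-linked genes were read in all 6 libraries, with list scores of 5.84 to 6.06, and their log2 fold changes ran from -0.09 to 0.19. By these genes all 6 mice were male.

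Across all genes the answer depended on the test. The edgeR quasi-likelihood test passed no gene at an adjusted p of 0.05 (0 of 19412, 0.0%), with a smallest adjusted p of 0.218. At an unadjusted p under 0.05 edgeR listed 3187 genes (16.4%), of which 1346 were higher in Myh11-Cre (6.93%) and 1841 lower (9.48%). DESeq2, run as an alternative on the same counts, passed 828 of 18660 genes at an adjusted p of 0.05 (4.44%), 251 higher (1.35%) and 577 lower (3.09%). limma with voom passed 0. In 5056 genes (26.0%) the 3 Myh11-Cre libraries lay wholly on one side of the 3 Wild Type libraries, 2196 above (11.3%) and 2860 below (14.7%). The median log2 fold change of all genes tested was 0.01, and 50.9% of them were higher in Myh11-Cre. Calls by DESeq2 are named as such below, and every gene named has an edgeR adjusted p of 0.218 or more.

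**Figure D1:**
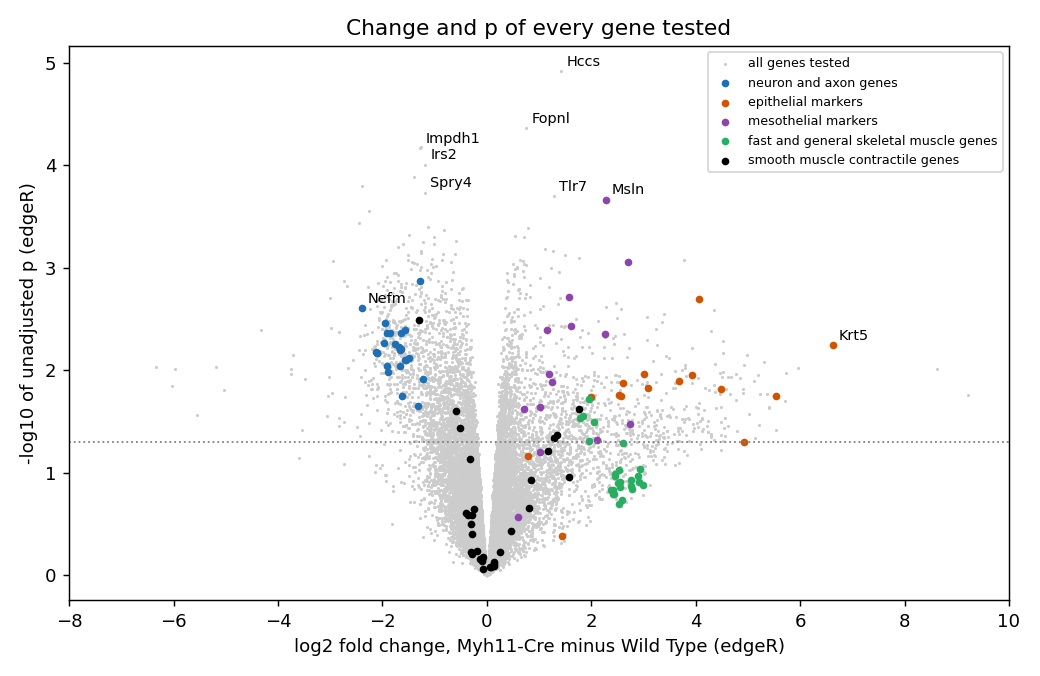
Log2 fold change (horizontal axis, Myh11-Cre minus Wild Type) against -log10 of the unadjusted edgeR p (vertical axis) for all 19412 genes tested, 1 point a gene, with 5 gene lists in colour. The dotted line marks an unadjusted p of 0.05. Hccs has the smallest p, all 24 neuron and axon genes lie to the left, and all epithelial, mesothelial and skeletal muscle genes lie to the right.

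The DESeq2 calls rested in large part on single libraries. Without Wild Type mouse 3 they numbered 28, without Myh11-Cre mouse 2 102, without Myh11-Cre mouse 3 103 and without Wild Type mouse 2 107, while without Myh11-Cre mouse 1 there were 1714 and without Wild Type mouse 1 907. A set of 18 genes passed DESeq2 with all libraries and in each of the 6 fits that left out 1 library. Higher in Myh11-Cre were Hccs, Fopnl, Tlr7, Herpud1, Agt, Msln, Krt19 and Tmprss2, and lower were Impdh1, Irs2, Spry4, Mmd2, Islr2, Map1b, Mmp24, Ncald, Syn2 and Tub. This set was formed after the values were seen and serves only to order the account that follows. Of the other DESeq2 calls named below, 10 held in 5 of the 6 fits and were lost without Wild Type mouse 3, namely Arhgap22, Diras1, Dusp14, Dusp4, Hand1, Lingo2, Nefm, Nlgn3, Nptxr and Tuba8. Another 4 held in 4 fits (Kcnk9, Krt5, Ngfr and Prss35) and 6 in 3 fits (Hspa4l, Itgb8, Muc16, Rimbp2, S100a14 and Syt1). Another 26 calls were lost without Myh11-Cre mouse 2 or 3 or Wild Type mouse 2 or 3, among them Agtr1a, Arhgap6, Chac1, Cyp11a1, Dbh, Egln3, Igfbp6, Notch3, Ret, Sncg, Th, Uqcc2 and Zmat3. A single fit called each of 14 genes, among them Atp5c1, Ccng1, Des, Egr1, Epcam, Sln, Spred3, Tcap and Tigar, and no fit called Ltf, Mcam or Prps2. Without Wild Type mouse 2, which held most of its group's Cyp11a1, the edgeR log2 fold change of Cyp11a1 was -2.87, against -6.35 with it.

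Hccs had the smallest p of all genes tested and was higher in every Myh11-Cre aorta. The gene encodes holocytochrome c synthase, the mitochondrial enzyme that attaches haem to cytochrome c. Its level was 89.3, 67.8 and 81.1 CPM in Myh11-Cre mice 1, 2 and 3 and 31.6, 27.2 and 29.6 CPM in the Wild Type mice. The lowest Myh11-Cre library was thus above the highest Wild Type library by a wide gap, and the means of 79.4 ± 10.8 and 29.5 ± 2.20 CPM (n = 3 each) differed 2.69-fold. The log2 fold change was 1.43 (SE 0.16), with an edgeR adjusted p of 0.218 and a DESeq2 adjusted p of 1.72e-09. The DESeq2 adjusted p of Hccs stayed between 3.13e-08 and 1.6e-05 whichever library was left out, and was 0.000133 with Myh11-Cre mouse 1 as the only library of its group. With no filter on low counts, the edgeR adjusted p of Hccs was 0.034, and Hccs was then the 1 gene to pass. In Itga8-Cre aortae the mean was 33.9 ± 6.68 CPM, and the difference of Myh11-Cre from Itga8-Cre was 1.23 on the log2 scale (SE 0.16, edgeR unadjusted p 3.75e-05). That second contrast shares the Myh11-Cre libraries with the first and passed no gene at an adjusted p of 0.05 (0.0%), with a smallest adjusted p of 0.521 and 1840 genes at an unadjusted p under 0.05 (9.48%).

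Fopnl had the next smallest p. It encodes a protein of the centrosome and lies beside Myh11 on chromosome 16. It was read at 45.9, 45.4 and 46.3 CPM in the Myh11-Cre mice and at 28.9, 27.5 and 25.3 CPM in Wild Type. The Myh11-Cre libraries were nearly equal and all lay above Wild Type. The means differed 1.68-fold (log2 fold change 0.75, SE 0.10, edgeR adjusted p 0.218, DESeq2 adjusted p 2.05e-05). In Itga8-Cre aortae the mean was 30.4 ± 3.19 CPM.

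**Figure D2:**
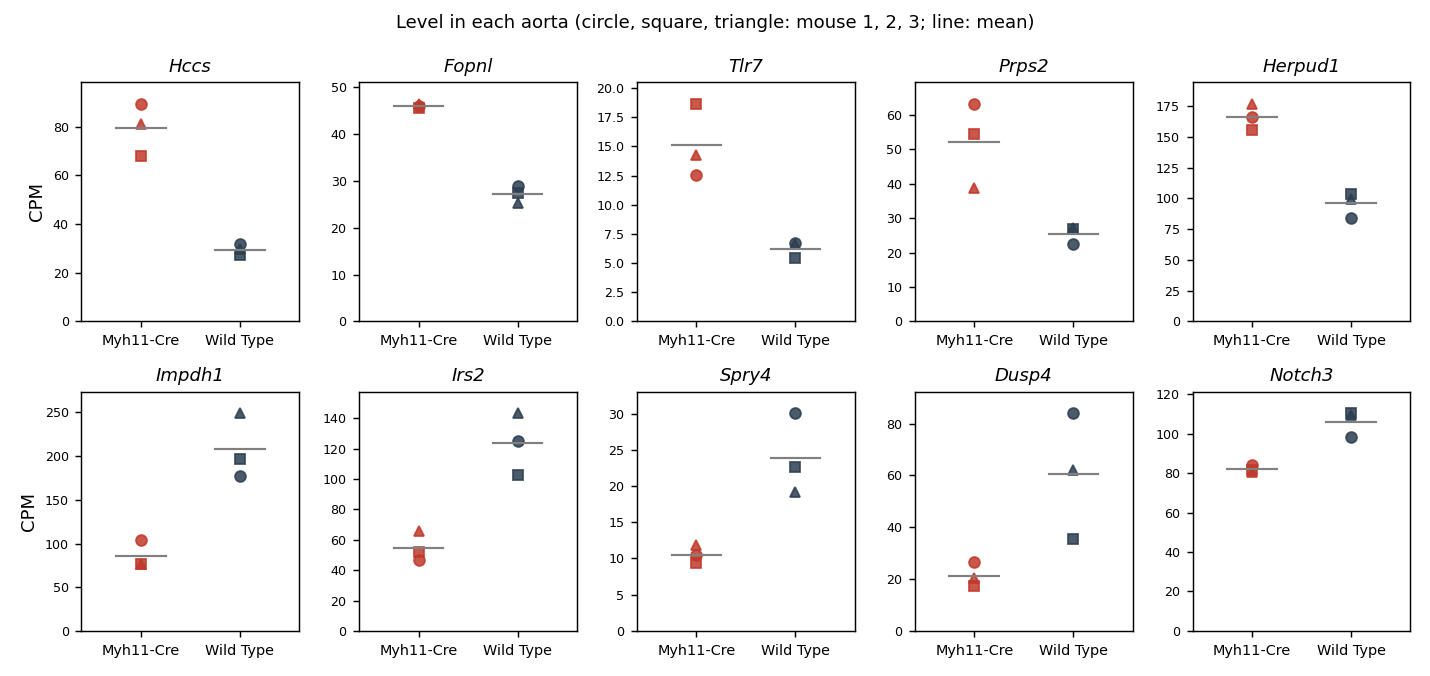
CPM (vertical axis, from 0) of 10 named genes in each Myh11-Cre and Wild Type aorta, 1 symbol a mouse, with a line at the mean of 3. In all 10 panels the 3 Myh11-Cre aortae lie wholly above or wholly below the 3 Wild Type aortae.

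The position of these genes was followed because Hccs, Tlr7 and Prps2 lie near one another on the X chromosome and Fopnl lies beside the gene whose regulatory sequence drives the Cre. Coordinates are those of GRCm38 with the GENCODE M21 annotation. Hccs lies at chrX:169250193-169320372 on the minus strand, and 22 genes were tested in the last 6 Mb of the chromosome. Of these, 16 were higher in Myh11-Cre, with a median log2 fold change of 0.26. DESeq2 called 4 higher and 0 lower, against 1.35% higher and 3.09% lower over all genes. Hccs, Tlr7 and Prps2, which led to this stretch, are part of these counts, so the counts do not test it. The 4 called genes were Hccs, Arhgap6, Tlr7 and Prps2. They were also the only 4 of the 22 whose groups did not overlap, a smaller share than the 26.0% over all genes.

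Tlr7 encodes an endosomal receptor for single-stranded RNA and lies at chrX:167304929-167330558. Its level was 12.5, 18.6 and 14.3 CPM in the mice with the transgene and 6.72, 5.39 and 6.61 CPM in Wild Type, with no overlap and a log2 fold change of 1.28 (SE 0.21, DESeq2 adjusted p 2.98e-05). Its neighbour Prps2 encodes an enzyme that makes phosphoribosyl pyrophosphate, the starting point of nucleotide synthesis. Prps2 was read at 63.1, 54.4 and 38.8 CPM against 22.5, 26.7 and 27.2 CPM (log2 fold change 1.03, SE 0.32, DESeq2 adjusted p 0.0435), a call that did not hold when any 1 of the 6 libraries was left out. Tlr8, the other RNA-sensing receptor there, was at 2.87, 11.3 and 4.82 CPM against 2.93, 2.80 and 2.71 CPM, so that Myh11-Cre mouse 1 overlapped Wild Type.

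Arhgap6, which encodes a GTPase-activating protein, was read at 10.9, 17.1 and 14.5 CPM against 7.91, 8.46 and 7.57 CPM (log2 fold change 0.83, SE 0.19, DESeq2 adjusted p 0.00603), and its call was lost in 4 of the 6 fits (DESeq2 adjusted p up to 0.125). It lies at chrX:168795099-169304435 on the plus strand and overlaps Hccs on the opposite strand. The library kit marks strand, but no source used here says whether the reads were counted by strand. If they were not, reads of this pair cannot be told apart. Not every gene of the stretch was higher. Frmpd4, which lies between Prps2 and Arhgap6 and encodes a scaffold protein of neurons, was at 2.79, 2.07 and 1.38 CPM against 2.00, 6.98 and 6.90 CPM (log2 fold change -1.35, SE 0.59, DESeq2 adjusted p 0.16). Mid1, the last named protein-coding gene tested on this stretch before a gene model, was at 6.02, 6.51 and 6.22 CPM against 5.19, 7.01 and 4.11 CPM, with overlap.

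Around Myh11, the 10 tested genes on either side had a median log2 fold change of 0.09. DESeq2 called 1 higher (Fopnl) and 1 lower (2900011O08Rik), against 1.35% and 3.09% over all genes. Fopnl had itself led to this stretch, so these counts do not test it. Myh11 itself was at 460.5, 1045 and 1114 CPM in Myh11-Cre aortae and 1371, 1078 and 986 CPM in Wild Type. The groups overlapped because Myh11-Cre mice 2 and 3 sat within the Wild Type range and only mouse 1 was well below it (log2 fold change -0.39, SE 0.32, edgeR unadjusted p 0.248). Nde1, a dynein regulator on the far side of Myh11 from Fopnl, was at 28.3, 26.6 and 28.1 CPM against 24.3, 22.9 and 21.5 CPM, without overlap but with a small log2 fold change of 0.27 (SE 0.10, DESeq2 adjusted p 0.177). Abcc1, a membrane transporter gene on the Fopnl side, was at 77.6, 89.5 and 89.1 CPM against 96.3, 90.7 and 87.9 CPM, with overlap. The gene model 2900011O08Rik was at 1.86, 1.17 and 0.599 CPM against 1.88, 3.73 and 5.15 CPM (log2 fold change -1.57, SE 0.48, DESeq2 adjusted p 0.0319).

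**Figure D3:**
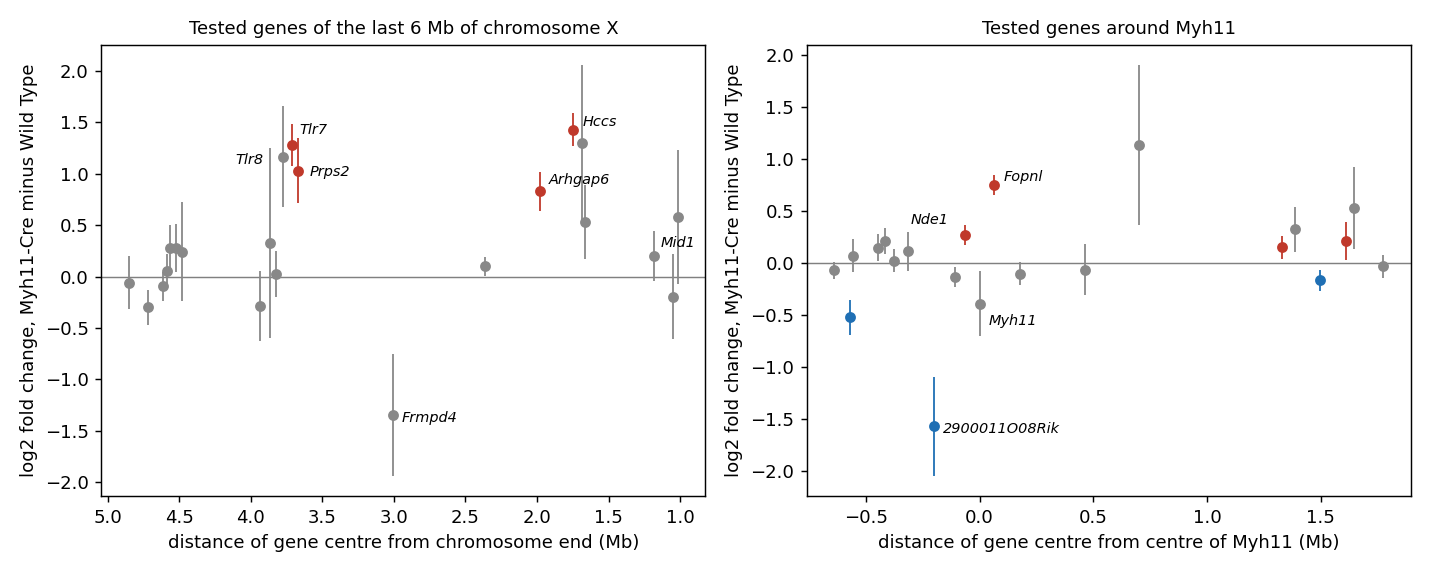
Log2 fold change with SE (vertical axis, Myh11-Cre minus Wild Type) of the tested genes in the last 6 Mb of chromosome X by distance of the gene's centre from the chromosome end (left), and of Myh11 with its 10 nearest tested genes on each side by distance from the centre of Myh11 (right). Red and blue mark genes whose 3 Myh11-Cre libraries all lie above or all below the 3 Wild Type libraries, grey the others. High values at Hccs, Arhgap6, Tlr7 and Prps2 are interspersed with values near or below 0.

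As a group, the contractile genes of smooth muscle had a median close to 0, but the Myh11-Cre libraries were split. Of 32 contractile genes, 14 were higher and 18 lower in Myh11-Cre, with a median log2 fold change of -0.09, and DESeq2 called 1 higher and 1 lower. Over all genes it called 1.35% and 3.09%. The groups did not overlap in 4 of the 32, all lower, against 14.7% lower over all genes. List scores were 6.02, 7.29 and 7.35 in Myh11-Cre and 7.15, 6.76 and 6.68 in Wild Type. In edgeR the median ran from -0.248 to 0.229 without 1 library. It was -0.935 with Myh11-Cre mouse 1 as the only library of its group. Acta2, smooth muscle actin, was at 171, 635 and 596 CPM against 1038, 323 and 375 CPM, and Tagln, an actin-binding protein of smooth muscle, at 90.1, 278 and 289 CPM against 380.5, 139 and 173 CPM. In both, the groups overlapped fully, with Myh11-Cre mouse 1 lowest and Wild Type mouse 1 highest. The gene called higher was Des, the intermediate filament protein of all muscle, at 124, 605 and 729 CPM against 99.6, 185 and 146 CPM (log2 fold change 1.76, SE 0.64, DESeq2 adjusted p 0.049). The 2 high libraries were the 2 rich in skeletal muscle transcripts, and with Myh11-Cre mouse 1 alone the log2 fold change of Des was -0.21 in edgeR. Their part in the result was not tested beyond this. The gene called lower was Sncg, gamma-synuclein, which nerve cells also make, at 27.7, 20.3 and 13.8 CPM against 34.5, 51.9 and 65.0 CPM (log2 fold change -1.29, SE 0.32, DESeq2 adjusted p 0.00733).

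Of 14 pericyte and mural Notch genes, 8 were higher and 6 lower, with a median log2 fold change of 0.07. Their groups did not overlap in 1 higher and 3 lower genes, near the 26.0% over all genes. DESeq2 called 2 lower, where 3.09% of all genes were called lower. The 3 lower genes are given next and do not stand for the list. Notch3, the Notch receptor of arterial smooth muscle and pericytes, was at 84.0, 81.4 and 80.6 CPM in Myh11-Cre aortae and 98.3, 110.2 and 109.5 CPM in Wild Type (log2 fold change -0.37, SE 0.09, DESeq2 adjusted p 0.0112). Mcam, a mural and endothelial adhesion molecule, was at 102, 117 and 101 CPM against 180.4, 149 and 160.5 CPM (log2 fold change -0.62, SE 0.17, DESeq2 adjusted p 0.0229). Hey2, a transcription factor downstream of Notch, was at 7.22, 7.32 and 8.36 CPM against 11.4, 11.7 and 11.2 CPM, but missed the DESeq2 threshold (log2 fold change -0.58, SE 0.18, adjusted p 0.0585). The Notch3 call was lost without any 1 of Myh11-Cre mice 2 and 3 and Wild Type mice 2 and 3, and the Mcam call without any 1 of the 6 libraries.

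Among 26 smooth muscle ion channels and receptors DESeq2 called 1 gene, lower, where 4.44% of all genes were called. This was Agtr1a, the angiotensin II type 1a receptor, at 9.69, 7.22 and 8.52 CPM against 10.4, 21.9 and 24.1 CPM (log2 fold change -1.15, SE 0.29, DESeq2 adjusted p 0.012). Wild Type mouse 1 lay close to the Myh11-Cre range, and the call was lost in 4 of the 6 fits without 1 library (DESeq2 adjusted p up to 0.19). Agt, the gene of the angiotensin precursor, was at 4.90, 5.45 and 3.83 CPM against 2.29, 1.85 and 2.39 CPM (log2 fold change 1.12, SE 0.22, DESeq2 adjusted p 0.000929). Npr1, the receptor for atrial natriuretic peptide, was at 56.1, 57.2 and 57.6 CPM against 88.0, 73.0 and 67.4 CPM, without overlap but not called (DESeq2 adjusted p 0.144). None of 17 elastic fibre genes or 20 collagen genes was called by DESeq2 or passed edgeR, and no elastic fibre gene had groups that did not overlap.

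Impdh1 and Irs2 were among the lower genes that passed DESeq2 whichever library was left out. Impdh1, the enzyme that commits purines to guanine nucleotides, was at 104, 76.9 and 76.9 CPM in Myh11-Cre mice and 177, 197 and 249 CPM in Wild Type. Its Wild Type mean was 2.41 times the Myh11-Cre mean, with no overlap (log2 fold change -1.27, SE 0.18, DESeq2 adjusted p 8.19e-07). Irs2, which links the insulin receptor to its downstream kinases, was at 46.6, 51.9 and 66.0 CPM against 125, 103 and 143 CPM (log2 fold change -1.17, SE 0.17, DESeq2 adjusted p 9.55e-06). The related Irs1 was at 84.9, 75.5 and 79.8 CPM against 127, 92.0 and 111 CPM, again without overlap, but was not called (log2 fold change -0.46, SE 0.14, DESeq2 adjusted p 0.0748). Of 24 insulin and IGF signalling genes, DESeq2 called Irs2 lower and 2 higher, Igfbp6 and Sesn1, which the fibroblast and p53 lists also hold, and the list's median log2 fold change was 0.07. Of 18 purine synthesis genes it called Impdh1 lower and Prps2 higher. Over all genes it called 1.35% higher and 3.09% lower.

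The list of ERK feedback inhibitors, genes that damp this kinase cascade, held 3 DESeq2 calls, all lower. Over all genes DESeq2 called 3.09% lower. Spry4, a Sprouty protein that restrains growth factor signalling, was at 10.5, 9.33 and 11.8 CPM against 30.04, 22.6 and 19.1 CPM (log2 fold change -1.18, SE 0.19, DESeq2 adjusted p 5.21e-05). Dusp4, a phosphatase that inactivates ERK, was at 26.6, 17.2 and 20.4 CPM against 83.9, 35.4 and 62.1 CPM (log2 fold change -1.50, SE 0.30, DESeq2 adjusted p 0.0014). Spred3, a relative of the Sprouty proteins, was at 1.48, 2.26 and 2.11 CPM against 3.53, 4.94 and 4.35 CPM (log2 fold change -1.13, SE 0.32, DESeq2 adjusted p 0.0243). No library of either group overlapped the other in these 3 genes. The list of 18 as a whole had 8 members higher and 10 lower, with a median log2 fold change of -0.10. Groups did not overlap in 2 higher and 6 lower members, against 11.3% and 14.7% over all genes. The Dusp4 call was lost without Wild Type mouse 3 (adjusted p 0.0626), and the Spred3 call in 5 of the 6 fits that left out 1 library. Egr1, an early response gene that ERK induces, was at 11.4, 18.5 and 14.6 CPM against 31.8, 18.2 and 39.9 CPM, where Wild Type mouse 2 lay within the Myh11-Cre range (log2 fold change -1.01, SE 0.28, DESeq2 adjusted p 0.03). In Itga8-Cre aortae, a comparison that shares these Wild Type and Myh11-Cre libraries, the means were 83.0 ± 10.04 CPM for Impdh1, 48.0 ± 6.36 CPM for Irs2, 9.45 ± 1.47 CPM for Spry4 and 23.7 ± 3.22 CPM for Dusp4. The difference of Myh11-Cre from Itga8-Cre in them ran from -0.15 (Dusp4, SE 0.29) to 0.19 (Irs2, SE 0.17) on the log2 scale.

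Genes of neurons and axons were lower in Myh11-Cre, and this was the list with the lowest median of all 43. The aorta is supplied by sympathetic nerve fibres that make noradrenaline with the enzymes Th and Dbh, load it into vesicles with the transporter Slc18a2 and store it with granins such as Chgb and Scg2. Cartpt, a neuropeptide gene of the list, was left out by the filter on low counts, with 9, 13 and 25 counts in Myh11-Cre and 1, 6 and 2 in Wild Type. All 24 tested genes of the list were lower, with a median log2 fold change of -1.68, while DESeq2 called 23 of them lower and 23 had groups that did not overlap. Over all genes, DESeq2 called 3.09% lower, and 14.7% lay wholly below Wild Type. The promoters of 4 list members that hold a cyclic AMP response element, the recognition sequence of CREB transcription factors, are printed here because they belong to the vesicle and transmitter genes just named. The sequences are from the RefSeq promoter table of GRCm38.p6 and run 5′ to 3′ from 250 bases before to 50 bases after the gene's start, 300 bases each, with the element in capitals.
Th: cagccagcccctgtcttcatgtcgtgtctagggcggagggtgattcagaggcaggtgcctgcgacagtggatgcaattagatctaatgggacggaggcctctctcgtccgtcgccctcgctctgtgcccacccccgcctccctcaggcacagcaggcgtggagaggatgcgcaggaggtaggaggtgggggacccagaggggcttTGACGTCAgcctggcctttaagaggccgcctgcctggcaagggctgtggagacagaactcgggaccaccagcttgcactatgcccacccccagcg
Chgb: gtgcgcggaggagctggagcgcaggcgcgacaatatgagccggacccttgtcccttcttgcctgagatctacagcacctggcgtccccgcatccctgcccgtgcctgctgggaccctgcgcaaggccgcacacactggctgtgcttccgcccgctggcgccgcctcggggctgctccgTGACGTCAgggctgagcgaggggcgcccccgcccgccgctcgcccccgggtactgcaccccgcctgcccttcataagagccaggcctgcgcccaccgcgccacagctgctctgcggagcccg
Scg2: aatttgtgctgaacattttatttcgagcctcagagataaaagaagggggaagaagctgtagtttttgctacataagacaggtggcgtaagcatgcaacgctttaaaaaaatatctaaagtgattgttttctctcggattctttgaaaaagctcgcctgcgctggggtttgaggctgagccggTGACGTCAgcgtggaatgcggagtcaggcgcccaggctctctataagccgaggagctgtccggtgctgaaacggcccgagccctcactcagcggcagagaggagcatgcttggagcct
Slc18a2: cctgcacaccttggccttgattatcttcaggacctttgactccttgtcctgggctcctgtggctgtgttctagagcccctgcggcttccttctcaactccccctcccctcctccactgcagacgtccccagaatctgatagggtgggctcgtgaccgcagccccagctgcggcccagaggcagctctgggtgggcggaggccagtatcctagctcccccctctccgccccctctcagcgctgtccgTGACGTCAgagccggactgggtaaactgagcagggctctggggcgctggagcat
These lie at chr7:142899946-142900245 (minus strand), chr2:132781392-132781691 (plus), chr1:79439977-79440276 (minus) and chr19:59260628-59260927 (plus). The element was searched as the letters TGACGTCA, which read the same on both strands. It begins 45 bases before the start in Th, 72 in Chgb, 68 in Scg2 and 4 in Slc18a2. It was found in 4 of the 15 tested list members that have a promoter in the table (26.7%). Among all tested genes with a promoter there it was found in 421 of 12896 (3.26%), and among all genes with one in 549 of 27025 (2.03%). The motif was chosen after the values of the list were known, and the match describes the sequence only.

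Th, the first enzyme of catecholamine synthesis, was at 36.9, 21.4 and 9.09 CPM in Myh11-Cre mice 1, 2 and 3 and at 45.8, 92.4 and 126 CPM in the Wild Type mice. Slc18a2 was at 31.3, 15.6 and 7.11 CPM against 34.4, 85.1 and 112 CPM. Chgb was at 8.98, 5.08 and 2.29 CPM against 9.85, 27.9 and 33.5 CPM. In each gene the groups did not overlap, but the highest Myh11-Cre library, mouse 1, lay just under the lowest Wild Type library, also mouse 1. The log2 fold changes were -1.97 for Th (SE 0.53), -2.10 for Slc18a2 (SE 0.59) and -2.12 for Chgb (SE 0.60), with DESeq2 adjusted p of 0.00686, 0.00802 and 0.00817.

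In genes of other neuronal functions, too, Myh11-Cre mouse 3 was the lowest and Wild Type mouse 1 the lowest of its group. Dbh, which turns dopamine into noradrenaline, was at 73.4, 34.9 and 15.5 CPM against 78.8, 179 and 207 CPM. Nefm, a neurofilament subunit of axons, was at 3.69, 2.31 and 1.15 CPM against 5.56, 15.2 and 16.4 CPM, the lowest log2 fold change of the list (-2.38, SE 0.56, DESeq2 adjusted p 0.00186). Syt1, the calcium sensor of vesicle release, was at 39.6, 20.8 and 10.7 CPM against 50.7, 108 and 116 CPM. Ret, a receptor for neurotrophic factors, was at 14.6, 9.53 and 8.31 CPM against 17.8, 33.9 and 27.2 CPM (log2 fold change -1.28, SE 0.28, DESeq2 adjusted p 0.00256). The list score was 3.91, 3.08 and 2.16 in Myh11-Cre and 4.14, 5.11 and 5.36 in Wild Type, so the spread within each group exceeded the gap of 0.23 between the nearest libraries.

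The number of neuronal calls followed single libraries. DESeq2 called 24 of the 24 genes lower without Myh11-Cre mouse 1 and 23 without Wild Type mouse 1, but 1 without Myh11-Cre mouse 2, 2 without Myh11-Cre mouse 3, 1 without Wild Type mouse 2 and 0 without Wild Type mouse 3. In edgeR the median of the list stayed between -2.26 and -1.37 whichever library was left out. With Myh11-Cre mouse 1 as the only library of its group the median was -1.001. Against Itga8-Cre aortae the median of the list was -1.08, with 16 of 24 genes lower at an unadjusted p under 0.05. In that contrast 9.48% of all genes had such a p in edgeR, in either direction.

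Outside that list, 5 lower genes that passed DESeq2 whichever library was left out are given next. They were chosen by their p, not as a class. Map1b, a microtubule-associated protein of growing axons, was at 211, 244 and 197 CPM against 406, 599 and 522 CPM (log2 fold change -1.23, SE 0.23, DESeq2 adjusted p 0.000139). Islr2, a membrane protein of axon growth, was at 3.12, 3.06 and 2.97 CPM against 6.46, 8.14 and 9.47 CPM (log2 fold change -1.40, SE 0.21, DESeq2 adjusted p 2.03e-05). Syn2, a synaptic vesicle protein, was at 33.2, 20.5 and 15.2 CPM against 52.0, 78.5 and 77.7 CPM. Mmp24, a membrane-bound matrix metalloproteinase, was at 0.301, 0.292 and 0.156 CPM against 1.25, 1.35 and 1.35 CPM (log2 fold change -2.38, SE 0.38, DESeq2 adjusted p 0.000135). Mmd2, a membrane protein of the progestin and adipoQ receptor family, was at 6.95, 6.51 and 6.56 CPM against 17.8, 13.04 and 16.9 CPM (log2 fold change -1.25, SE 0.18, DESeq2 adjusted p 8.19e-07).

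Other lower genes named for their small p, again not a class chosen by function, were the following. Nlgn3, a neuroligin that joins synapses, was at 1.12, 1.34 and 1.22 CPM against 2.69, 4.34 and 3.51 CPM (log2 fold change -1.51, SE 0.30, DESeq2 adjusted p 0.00124). Nptxr, the receptor of neuronal pentraxins, was at 7.11, 7.83 and 6.72 CPM against 11.3, 17.2 and 15.5 CPM (log2 fold change -1.02, SE 0.19, DESeq2 adjusted p 0.00107). Diras1, a small GTPase, was at 0.356, 0.292 and 0.313 CPM against 0.956, 1.51 and 2.16 CPM (log2 fold change -2.26, SE 0.39, DESeq2 adjusted p 0.000853). In these 3 genes the groups did not overlap. Tub and Ncald passed DESeq2 whichever library was left out. Tub, a membrane-linked protein of neurons, was at 14.2, 10.8 and 8.26 CPM against 22.9, 36.2 and 34.2 CPM, and Ncald, a neuronal calcium sensor, at 21.7, 17.2 and 15.3 CPM against 32.6, 39.9 and 46.1 CPM.

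The 12 largest falls among the DESeq2 calls without overlap were Mmp24, Nefm, Lingo2, Rimbp2, Caln1, Slc35f3, Hand1, Myt1l, Gprin1, Prss35, Kcnk9 and Cyp11a1. Rimbp2, a presynaptic scaffold protein, was at 4.57, 1.82 and 1.09 CPM against 5.59, 17.7 and 14.3 CPM, and Hand1, a transcription factor of sympathetic neurons and heart, at 0.876, 0.389 and 0.182 CPM against 1.33, 4.31 and 3.64 CPM. In both, Wild Type mouse 1 was the lowest of its group. Kcnk9, a potassium channel gene, was at 0.219, 0.389 and 0.208 CPM against 0.579, 9.68 and 0.833 CPM, and Prss35, a secreted protease-like protein, at 0.684, 1.09 and 0.781 CPM against 1.62, 9.76 and 2.50 CPM. For these 2 genes and Cyp11a1, Wild Type mouse 2 held most of the group's level.

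Schwann cells are the glia that wrap peripheral nerves, and their genes had smaller differences than the neuronal ones. Of 21 Schwann cell and glial genes tested, 10 were higher and 11 lower, with a median log2 fold change of -0.13. In 7 of them all Myh11-Cre libraries lay below Wild Type, against 14.7% over all genes. DESeq2 called 1, where it called 4.44% of all genes. That gene was Ngfr, a neurotrophin receptor that neurons also make, at 38.6, 22.5 and 12.9 CPM against 52.1, 104 and 102 CPM (log2 fold change -1.80, SE 0.42, DESeq2 adjusted p 0.00221). Sox10, the transcription factor of glia, was at 4.62, 4.67 and 5.10 CPM against 4.98, 7.43 and 7.03 CPM, with overlap. The score of the list was 3.46 to 3.62 in Myh11-Cre and 3.67 to 3.89 in Wild Type.

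Genes of the lining and covering layers were higher in Myh11-Cre. Mesothelium is the cell sheet that covers the organs and walls of the chest and belly, and epithelium lines airways, thymus, gut and skin. All 14 tested mesothelial genes were higher, with a median log2 fold change of 1.41, 8 called by DESeq2 and 11 without overlap. Over all genes, DESeq2 called 1.35% higher, and 11.3% lay wholly above Wild Type. Msln, mesothelin, was at 19.6, 42.9 and 35.1 CPM against 9.59, 5.24 and 5.15 CPM (log2 fold change 2.29, SE 0.37, DESeq2 adjusted p 5.6e-06). Krt19, a keratin that mesothelium shares with simple epithelia, was at 7.83, 29.97 and 21.7 CPM against 3.85, 2.59 and 2.65 CPM (log2 fold change 2.71, SE 0.54, DESeq2 adjusted p 0.00014). Muc16, a mucin of these surfaces, was at 57.4, 137 and 89.4 CPM against 45.2, 22.2 and 28.4 CPM. Wt1, the transcription factor of mesothelium, was at 5.55, 9.50 and 3.93 CPM against 5.16, 4.84 and 2.58 CPM, with overlap.

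All 15 tested epithelial genes were higher, with a median log2 fold change of 3.08, the highest of the 43 lists, and DESeq2 called 10. In 13 of them the groups did not overlap. Over all genes, DESeq2 called 1.35% higher, and 11.3% lay wholly above Wild Type. Their summed level was 85.2, 592 and 459.5 CPM in Myh11-Cre aortae and 30.6, 22.4 and 30.03 CPM in Wild Type. Epcam, an adhesion molecule of epithelia, was at 1.89, 5.59 and 5.21 CPM against 0.695, 0.767 and 0.599 CPM (log2 fold change 2.62, SE 0.84, DESeq2 adjusted p 0.0216). Krt5, a keratin of basal epithelial cells, was at 1.37, 59.8 and 7.50 CPM against 0.261, 0.264 and 0.156 CPM, so that most of its mean came from Myh11-Cre mouse 2. Tmprss2, a surface protease of epithelia, was at 0.876, 5.79 and 4.74 CPM against 0.203, 0.238 and 0.234 CPM (log2 fold change 4.06, SE 0.93, DESeq2 adjusted p 0.000503). Ltf, the iron-binding lactoferrin of secretions and no member of the list, was at 7.61, 226 and 273 CPM against 3.10, 2.46 and 4.06 CPM. In these genes Myh11-Cre mouse 1 was nearest to Wild Type, and mice 2 and 3 were high.

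The 12 largest rises among the DESeq2 calls without overlap were Krt5, Ltf, Cldn7, Serpinb12, Prom2, S100a14, Fgfbp1, Ces2f, Krt23, Gpx2, Fam216b and Pof1b. Krt23, a keratin, was at 0.328, 2.36 and 1.93 CPM against 0.116, 0.0264 and 0.0520 CPM. Gpx2, a glutathione peroxidase of epithelia, was at 0.547, 5.06 and 2.92 CPM against 0.0869, 0.106 and 0.182 CPM. Serpinb12, a serine protease inhibitor, was at 0.0547, 5.59 and 0.339 CPM against 0 in every Wild Type library, so no fold is given. Except in Fgfbp1 and Ltf, the highest level of these genes was that of Myh11-Cre mouse 2.

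With Myh11-Cre mouse 1 as the only library of its group, the epithelial median was 1.63 and DESeq2 called 0 of the 15 epithelial and 0 of the 14 mesothelial genes. Leaving out single libraries, DESeq2 called 1 to 11 of the epithelial genes, the lowest without Myh11-Cre mouse 2, and 2 to 9 of the mesothelial genes, the lowest without Myh11-Cre mouse 2 or Wild Type mouse 3. Against Itga8-Cre aortae the medians were 1.08 and 0.61, with an unadjusted p under 0.05 for 0 epithelial genes and 1 mesothelial gene. In that contrast 9.48% of all genes had such a p in edgeR. The summed epithelial level of the Itga8-Cre mice was itself uneven, at 15.5, 30.07 and 379.7 CPM.

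The skeletal and cardiac muscle genes had large mean differences, but few had groups that did not overlap. All 25 fast and general skeletal muscle genes were higher on average, with a median log2 fold change of 2.53, but 0 had groups without overlap and DESeq2 called 1, Tcap. Over all genes, 26.0% had groups without overlap and DESeq2 called 4.44%. Acta1, skeletal actin, was at 4.57, 2383 and 3636 CPM in Myh11-Cre mice 1, 2 and 3 and at 145, 273 and 343 CPM in Wild Type. Myh4, a fast myosin, was at 11.2, 1866 and 2219 CPM against 224, 239 and 299 CPM. In both genes Myh11-Cre mouse 1 was the lowest of the 6 libraries and mice 2 and 3 the highest. The median of the list was -4.16 with mouse 1 as the only Myh11-Cre library. Of 22 slow and cardiac sarcomere genes, all were higher on average, with a median of 1.28. Groups did not overlap in 2 of them, and DESeq2 called 1, Sln, an inhibitor of the calcium pump. Sln was at 57.1, 196 and 186 CPM against 39.1, 55.8 and 33.9 CPM, and Myh6, the atrial myosin, at 1745, 4411 and 4182 CPM against 926, 2660.5 and 902 CPM. With mouse 1 as the only Myh11-Cre library the DESeq2 log2 fold change of Sln was 0.43 (adjusted p 0.929). The part that these tissues have in other results was not tested, beyond the values given with mouse 1 alone.

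**Figure D4:**
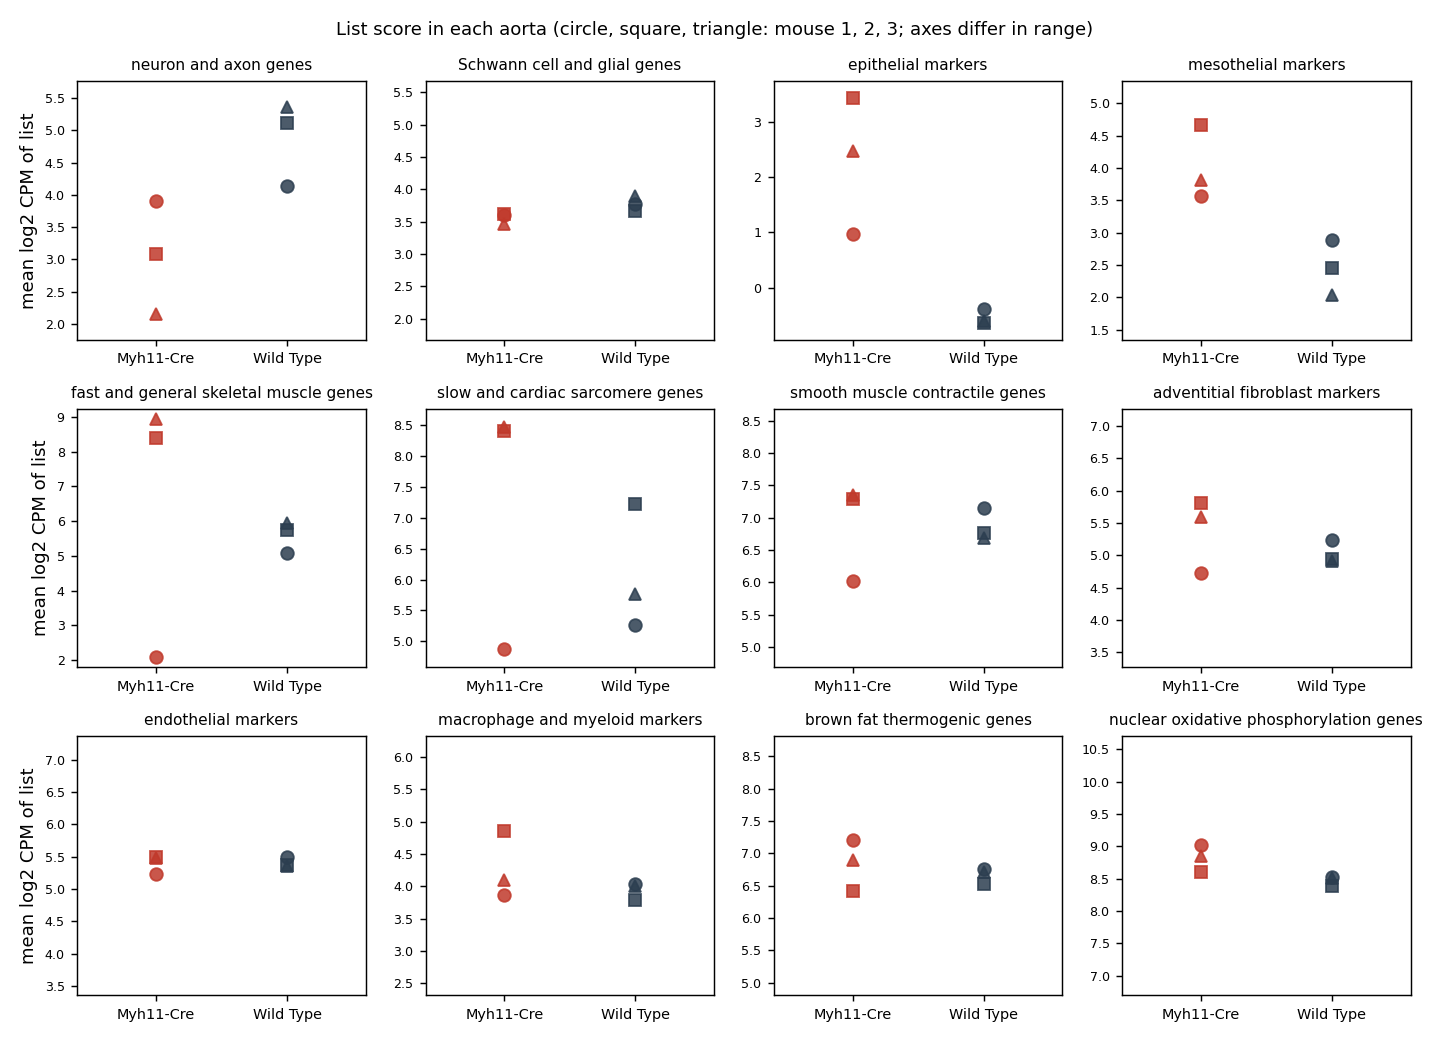
List score (vertical axis, mean log2 CPM of the list's tested genes) in each Myh11-Cre and Wild Type aorta for 12 lists, 1 symbol a mouse. Neuron, epithelial and mesothelial scores do not overlap between the groups, while in the skeletal muscle panel Myh11-Cre mouse 1 is the lowest and mice 2 and 3 the highest of the 6 libraries.

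Endothelial, fibroblast and immune genes showed few or no calls, where DESeq2 called 4.44% of all genes. Of 24 endothelial genes, 12 were higher and 12 lower, with a median log2 fold change of -0.02 and 0 DESeq2 calls. Kdr, the main receptor for vascular endothelial growth factor, was at 124, 124 and 126 CPM against 138, 145 and 153 CPM, a difference of -0.22 on the log2 scale (SE 0.11, DESeq2 adjusted p 0.348) with no overlap. Of 20 adventitial fibroblast markers 17 were higher, with a median of 0.42, and DESeq2 called 1, Igfbp6, a secreted binding protein of IGF-II, at 24.4, 47.5 and 39.8 CPM against 23.8, 11.3 and 18.8 CPM. With Myh11-Cre mouse 1 as the only library of its group the fibroblast median was -0.42. All 24 macrophage and myeloid genes were higher on average, with a median of 0.42 and 0 calls, and their score overlapped between groups, at 3.87, 4.86 and 4.09 against 4.04, 3.78 and 4.0. Cd68, a lysosomal protein of macrophages, was at 7.99, 16.9 and 8.33 CPM against 6.98, 6.03 and 6.58 CPM, the highest library being Myh11-Cre mouse 2. None of 21 lymphocyte, 15 immature thymocyte or 28 cell cycle genes was called by DESeq2, although the medians of the last 2 lists were 0.80 and 0.72.

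Genes of the nuclear-encoded respiratory chain were slightly and evenly higher. All 29 tested were higher in Myh11-Cre, with log2 fold changes from 0.22 to 0.50 and a median of 0.35. Groups did not overlap in 20 of them, against 26.0% over all genes. The list score was 9.02, 8.61 and 8.85 in Myh11-Cre and 8.53, 8.39 and 8.51 in Wild Type. In Itga8-Cre it was 9.0, 8.12 and 8.55, a wider spread than the gap between the nearest Myh11-Cre and Wild Type libraries. DESeq2 called 1 of the 29 genes, Atp5c1, a subunit of the ATP synthase, at 423, 423 and 486 CPM against 323, 317 and 313 CPM (log2 fold change 0.48, SE 0.14, DESeq2 adjusted p 0.0203). Uqcc2, an assembly factor of complex III outside the list, was at 31.6, 33.0 and 38.3 CPM against 21.4, 20.9 and 20.2 CPM (log2 fold change 0.72, SE 0.13, DESeq2 adjusted p 0.00368). The 9 tested genes encoded in the mitochondrial genome had a median of 0.01. Of 17 haem and cytochrome c genes DESeq2 called Hccs alone, while Cycs, which encodes the cytochrome c that Hccs acts on, was at 226, 156 and 185 CPM against 149.9, 118 and 134 CPM (log2 fold change 0.49, SE 0.25, DESeq2 adjusted p 0.32). The brown fat list had a median of -0.01 and overlapping scores, at 7.21, 6.41 and 6.89 against 6.76, 6.52 and 6.71. Its summed level was 8981, 4517 and 6784 CPM against 5180, 4144 and 4784 CPM. Of its 18 tested genes, 3 lay wholly above Wild Type and 1 wholly below, against 11.3% and 14.7% over all genes. Whether brown fat had a part in the respiratory chain values was not tested.

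Several other genes near the top of the ranking belong to no list. Tuba8, an alpha-tubulin, was at 54.7, 40.9 and 58.9 CPM against 24.2, 19.1 and 21.1 CPM (log2 fold change 1.26, SE 0.24, DESeq2 adjusted p 0.00161). Dusp14, a phosphatase of MAP kinase pathways, was at 3.61, 4.81 and 5.23 CPM against 1.51, 1.35 and 1.17 CPM (log2 fold change 1.76, SE 0.35, DESeq2 adjusted p 0.0014). Arhgap22, an inhibitor of the GTPase Rac, was at 3.97, 4.01 and 4.32 CPM against 7.88, 6.69 and 7.57 CPM (log2 fold change -0.85, SE 0.17, DESeq2 adjusted p 0.0014). None of the 3 overlapped between the groups. Arhgap22 was also lower than in Itga8-Cre aortae, whose mean was 7.17 ± 1.32 CPM, by a log2 difference of -0.81 (SE 0.17, edgeR unadjusted p 0.00103).

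Each of the 4 stress lists had a median above 0, with 1 to 4 DESeq2 calls each. Over all genes, DESeq2 called 4.44%, and 26.0% had groups without overlap. Of 20 endoplasmic reticulum stress genes 16 were higher, with a median log2 fold change of 0.09, and DESeq2 called 2, both higher. Herpud1, which helps remove misfolded proteins from the endoplasmic reticulum, was at 166, 156 and 177 CPM against 84.3, 104 and 99.8 CPM (log2 fold change 0.79, SE 0.14, DESeq2 adjusted p 0.00116), and Chac1, an enzyme that degrades glutathione, at 2.93, 5.83 and 6.56 CPM against 1.97, 1.51 and 1.93 CPM. Of 19 p53 target genes DESeq2 called 3 higher and 1 lower. Tigar, which restrains glycolysis, was at 22.7, 20.7 and 24.9 CPM against 14.8, 17.0 and 15.1 CPM, and Ccng1, cyclin G1, at 244, 382 and 454 CPM against 225, 217 and 202 CPM. Zmat3, an RNA-binding protein, went the other way, at 20.1, 19.1 and 18.02 CPM against 23.4, 30.6 and 24.7 CPM. The median of the p53 list was 0.17, and its DESeq2 calls numbered 0 without Myh11-Cre mouse 2 or 3 or Wild Type mouse 2 or 3. Of 16 heat shock genes 15 were higher, with a median of 0.24, and the groups did not overlap in 6. DESeq2 called 1, Hspa4l, a chaperone of the Hsp110 family, at 75.9, 67.0 and 67.7 CPM against 45.9, 49.2 and 49.8 CPM (log2 fold change 0.54, SE 0.10, DESeq2 adjusted p 0.00326). Of 20 hypoxia genes 16 were higher, with a median of 0.46, and the groups did not overlap in 5, near the share over all genes. DESeq2 called 1, Egln3, an oxygen-sensing hydroxylase, at 14.4, 16.5 and 18.3 CPM against 10.5, 7.30 and 6.61 CPM. DESeq2 called 0 of 25 interferon response genes, 0 of 20 glucocorticoid targets and steroid receptors, 0 of 18 clock genes, 0 of 25 TGF-beta and BMP genes and 0 of 24 Hox genes.

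Itga8, the integrin gene behind the other Cre line, did not separate the groups, at 72.4, 298 and 300.3 CPM in Myh11-Cre aortae and 475, 147 and 196 CPM in Wild Type. Among 24 other integrin subunits DESeq2 called 1, Itgb8, at 12.9, 14.1 and 12.1 CPM against 18.7, 20.97 and 19.99 CPM (log2 fold change -0.61, SE 0.12, DESeq2 adjusted p 0.00233). DESeq2 called 4.44% of all genes. Itgb8 encodes the integrin beta chain that releases active TGF-beta. Its mean in Itga8-Cre aortae was 18.1 ± 2.40 CPM, 0.47 on the log2 scale above Myh11-Cre (SE 0.12, edgeR unadjusted p 0.0037).

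**Figure D5:**
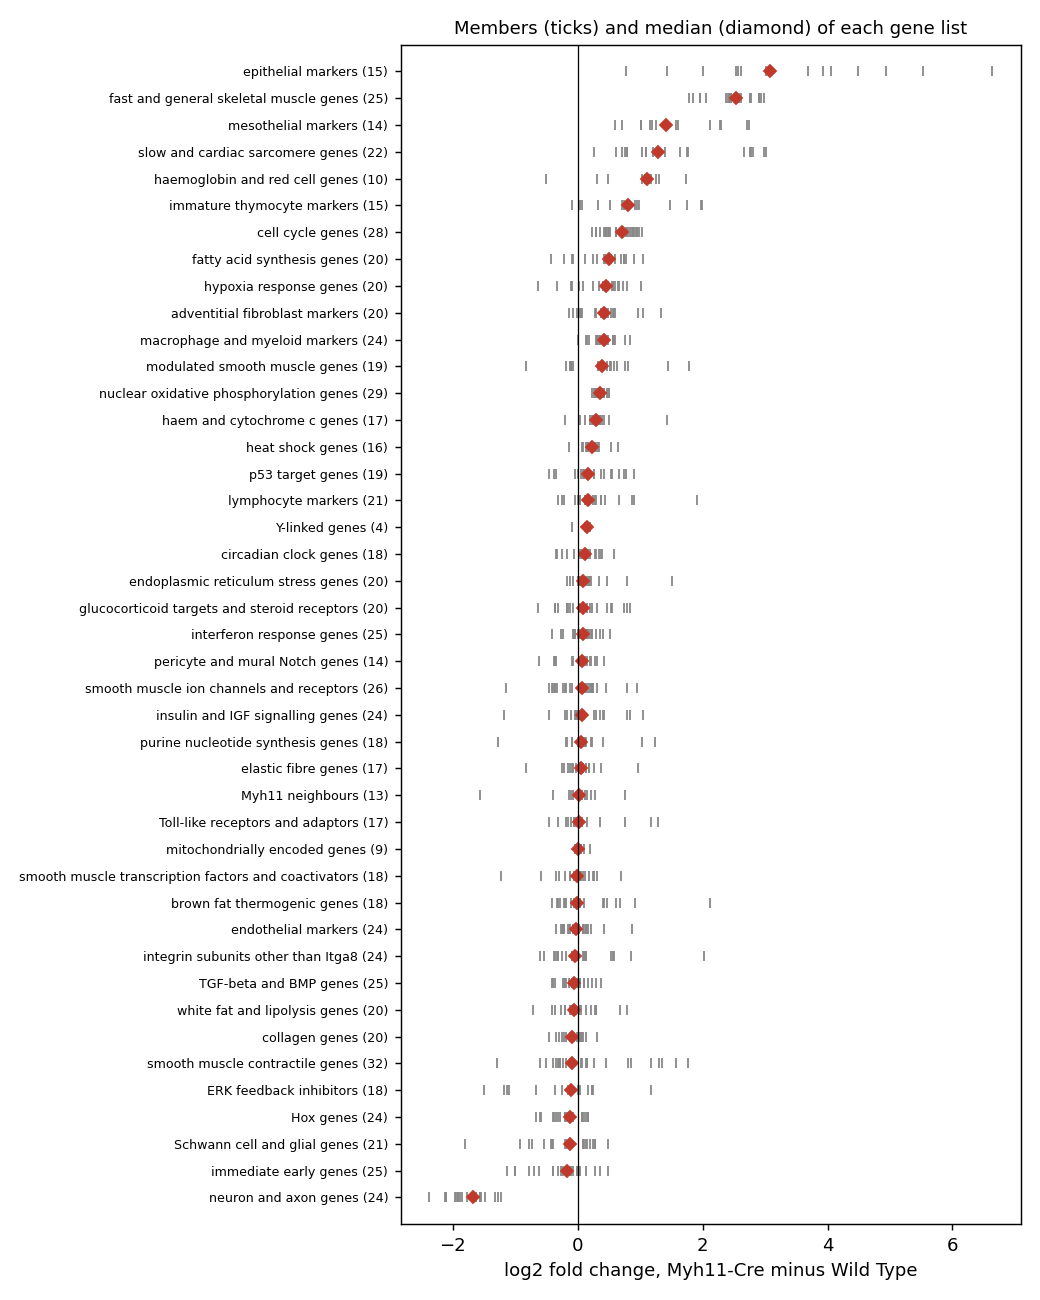
Log2 fold change (horizontal axis, Myh11-Cre minus Wild Type) of each tested member (ticks) and the median (diamond) of 43 gene lists, with the number of tested members in brackets. Neuron and axon genes lie furthest left at a median of -1.68, epithelial markers furthest right at 3.08, and most lists straddle 0.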

How the data were processed

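Aortic RNA of 3 Myh11-Cre and 3 Wild Type mice was analysed, with 3 Itga8-Cre libraries sharing the estimate of spread. Per the labels' protocols, polyadenylated RNA was made into stranded libraries and read as single-end 75 nt reads. The authors deposited raw counts per gene, which were used for every test. The submitters' processing notes name the build GRCm38.p6 and, among other tools, fastp 0.20.0, STAR 2.7.0f and Subread 1.6.4 with featureCounts. The sources used here give neither the annotation release nor the strand setting.

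Genes were tested in R 4.3.3 with edgeR 4.0.16 (filterByExpr, TMM, robust quasi-likelihood test, all 9 libraries, Benjamini-Hochberg adjustment, threshold 0.05). The common biological coefficient of variation was 0.294. DESeq2 1.42.0 and limma 3.58.1 (voom) were alternatives. The pipeline was tested on simulated data. Symbols were placed with GENCODE M21 (19245 of 19412 matched 1 gene).

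Named genes were Myh11, Itga8 and Y-linked genes, the 30 with the smallest p, the 12 largest DESeq2 calls each way (both with a mean CPM of at least 1), up to 4 members of each list, and tested genes at the X end and around Myh11. Others were named after their values were seen. The members, lists and tests were chosen with earlier results of these data known, so lists are described by counts and medians without a test of the list.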

Additional observations from a re-analysis of the deposited data

How the results depend on the processing

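The 0 edgeR calls, at 3187 genes with an unadjusted p under 0.05, stood under RLE scaling, a stricter filter, voom, dispersion without robust weighting, a fit of only the 6 libraries and each fit without 1 library (0 to 0 genes). There was 1 call with no filter on low counts (Hccs), 828 with DESeq2, and 1 (adjusted p 0.00587) with Myh11-Cre mouse 1 as the only library of its group, an unnamed gene model. With the mouse number as a replicate block edgeR called 1 gene, Hccs (adjusted p 0.0277). The labels do not say that the numbers pair the mice. Residuals of same-numbered Myh11-Cre and Wild Type mice correlated at 0.03 to 0.16, above 0.1 in 1 of 3 pairs, and 4 of these 6 libraries correlated best with their own number. Differently numbered Myh11-Cre and Wild Type mice correlated at -0.12 to 0.05. Over all 9 same-numbered pairs, Itga8-Cre included, the correlations ran from 0.03 to 0.40, with 5 above 0.1. Itga8-Cre mouse 3 and Myh11-Cre mouse 2, of different numbers, correlated at 0.24. The main fit did not pair the mice because the labels state no pairing, and these correlations do not settle whether same-numbered mice shared anything. The block changed no other edgeR call. DESeq2 calls ran from 28 to 1714 without 1 library and numbered 51 with Myh11-Cre mouse 1 alone. That setting, in which the lone library takes its spread from the other groups, and the DESeq2 fits without single libraries were chosen after seeing the data. The directions of the neuron, epithelial and mesothelial medians held under all 15 alternatives. With Myh11-Cre mouse 1 alone the list medians moved by more than their spread as follows: contractile -0.935, smooth muscle transcription factors -0.533, channels and receptors -0.31, pericyte -0.201, modulated smooth muscle -0.821, elastic fibre -0.85, collagen -0.681, fibroblast -0.421, endothelial -0.238, epithelial 1.628, skeletal muscle -4.164, brown fat 0.465, white fat 0.294, haem 0.431, ERK feedback -0.34, glucocorticoid -0.123, clock -0.095, endoplasmic reticulum stress 0.292 and haemoglobin -0.086. In that setting the log2 fold change was -0.21 for Des, -0.04 for Tcap, -5.8 for Acta1 and -4.5 for Myh4. The Schwann median was 0.045 with voom. Without 1 library the medians ran from 0.012 to 0.073 for purine synthesis, 0.017 to 0.248 for glucocorticoid targets and -0.022 to 0.108 for the listed Myh11 neighbours, and the log2 fold changes from -0.57 to 0.39 for Itga8, -0.58 to 0.43 for Acta2 and -0.33 to 0.49 for Tagln. Depth limits genes under 1 CPM most, such as Diras1 and Krt23, whose levels rest on few reads. The causes of these shifts were not tested.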
